A study of Mus musculus with 17 samples.

Results

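29P is an orally available RGD mimetic, a prodrug that is processed in the body to a cyclic peptide directed at the αvβ3 integrin. The question addressed here was what 29P changed in hearts that carried no pressure overload. The libraries were chosen by their labels, as all Sham 29P and all Sham Veh libraries, and these were 8 of the 17 libraries of the series. The 3 Sham 29P libraries (S4, S14 and S15) came from sham-operated mice given 50 μg/kg 29P by oral gavage. The 5 Sham Veh libraries (S5, S6, S13, S19 and S20) came from sham-operated mice given the same volume of saline. All were male C57Bl6/J mice operated on at 7 to 8 weeks of age, with 6 gavages that began 1 week after surgery and left ventricle apex collected at 3 weeks. The sham operation is shared by both groups, and the remaining 9 libraries (3 TAC Veh and 6 TAC 29P) came from mice with transverse aortic constriction (TAC), which narrows the aorta and overloads the left ventricle. Polyadenylated RNA of whole tissue was sequenced, so that fewer cells of a type and less RNA per cell cannot be told apart.

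Integrins are paired α and β chains that anchor cells to the extracellular matrix and signal in both directions across the membrane. The αv chain with β3 binds the RGD motif of fibronectin, vitronectin and osteopontin, and in blood vessels it acts together with the VEGF receptors. Most RNA of the ventricle comes from cardiomyocytes, whose mitochondria are built from subunits encoded in both the nuclear and the mitochondrial genome.

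Levels are in CPM, a gene's reads scaled to a common total per library and not divided by its length. A gene passed the call at an unadjusted limma p of 0.05 or less, and Benjamini-Hochberg adjusted values are given beside it. Of 16218 genes tested, 255 were higher and 835 were lower in Sham 29P, which is 6.72% of the genes (1.57% higher and 5.15% lower). No gene passed an adjusted p of 0.05, and the smallest adjusted p by limma with Benjamini-Hochberg adjustment was 0.715. The levels of the 3 Sham 29P libraries did not overlap those of the 5 Sham Veh libraries in 347 genes, 2.14% of the genes tested, of which 102 were higher (0.629%) and 245 lower (1.51%).

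The libraries themselves differed. S14 was the shallowest, at an estimated 14.2 M reads, against 21.7 M in S4 and 17.05 M in S15, and 23.8, 22.3, 21.04, 22.4 and 20.02 M in S5, S6, S13, S19 and S20. Means were 17.6 ± 3.78 M reads (SD, n = 3) in Sham 29P and 21.9 ± 1.43 M reads (SD, n = 5) in Sham Veh, with an exact two-sided permutation p of 0.0536 (0.214 adjusted over 9 library measures), where 3 against 5 libraries cannot go below 0.0179. S14 listed 3547 genes at 0, the other 7 libraries between 1660 and 2734. The share of mitochondrial-encoded mRNA was 40.0% in S14 and 38.8% in S6, and between 29.1% and 35.2% in the other 6 libraries. The first principal component of the 8 libraries, with 35.8% of the variance, placed S14 at 138 and S6 at 67.3, with S15 at -3.11 and S4 at -73.2, so that it did not separate the treatments (exact permutation p of 0.589).

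S19 and S20 carried atrial transcripts, which the left ventricle apex should lack. Myl7, the atrial myosin light chain, was at 895 CPM in S19 and 723 CPM in S20 and at 0.784 CPM or less in the other 6 libraries. Sln, which encodes the atrial calcium pump regulator sarcolipin, was at 441 and 332 CPM in S19 and S20 and at 0.626 CPM or less elsewhere. The summed level of 9 atrial markers was 6721 CPM in S19 and 5553 CPM in S20, against 202 to 371 CPM in the others, with Nppa at the highest CPM and Bmp10 at or near 0 in every library. Both libraries belong to Sham Veh. Cardiomyocyte markers summed to 47766 to 65189 CPM in every library, with Myh6 at the highest CPM. That list was not made to tell ventricular from atrial muscle, so the sum does not measure ventricular content.

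Without S14, 151 genes were higher (0.931%) and 228 lower (1.41%), together 2.34%. Without S19 and S20, 124 were higher (0.765%) and 402 lower (2.48%), together 3.24%. Without all 3 libraries, 180 were higher (1.11%) and 177 lower (1.09%), together 2.2%. A fit to the Sham libraries alone called 84 higher (0.518%) and 404 lower (2.49%), together 3.01%. Without both S6 and S14 it was 67 higher (0.413%) and 221 lower (1.36%), together 1.78%, and with TMM factors and without S14 it was 212 higher (1.31%) and 288 lower (1.78%), together 3.08%. Of the genes called with all libraries, 50 of the 255 higher and 143 of the 835 lower also passed without S14. Leaving out S4 gave 365 higher and 2248 lower genes. Single Sham Veh libraries moved the counts as well, to 570 higher without S5, 136 higher without S19, 161 higher without S6 and 504 lower without S20, and 514 were higher without S15. The excess of lower over higher genes moved with the scaling too. Lower genes were 76.6% of the calls on total counts and 59.0% with TMM factors, which called 522 higher (3.22%) and 752 lower (4.64%), together 7.86%. The median over all genes shifted with these factors from a log2 fold change of -0.06 to one of -0.00. The plot of gene counts by setting shows the split under each choice.

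**Figure D1:**
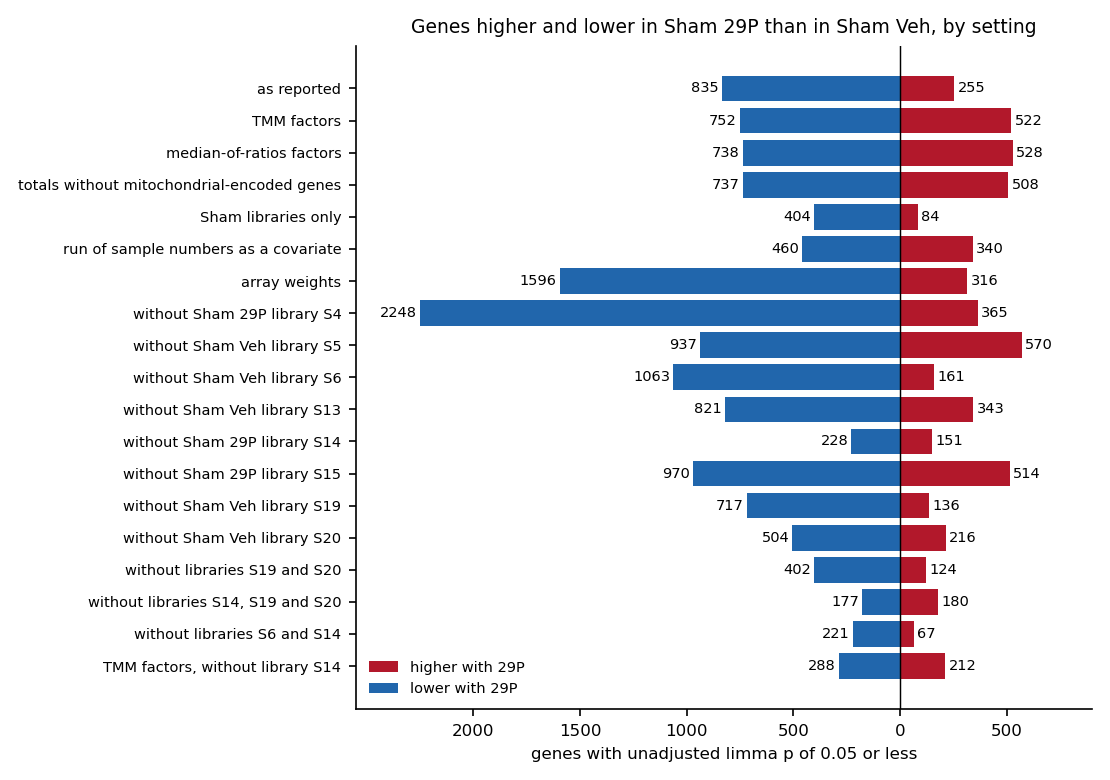
Number of genes with an unadjusted limma p of 0.05 or less that were higher (red, to the right) or lower (blue, to the left) in Sham 29P than in Sham Veh, for each scaling, model and set of libraries. Lower genes number 835 with all libraries, 228 without S14 and 2248 without S4, the widest range among the single libraries left out.

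Genes of the translation and respiration machinery made up the largest groups of lower genes among the lists examined. Of 89 cytosolic ribosomal protein genes tested, 46 (51.7%) were lower with 29P and 0 were higher, with a median log2 fold change of -0.43 against -0.06 over all genes. Of 78 mitochondrial ribosomal protein genes, 18 (23.1%) were lower and 0 higher, with a median of -0.19. Of 85 nuclear-encoded subunits of oxidative phosphorylation (OXPHOS), 27 (31.8%) were lower and 0 higher, with a median of -0.25. Of 38 proteasome subunits, which form the protease that degrades ubiquitinated proteins, 8 (21.1%) were lower and 0 higher. The background of lower genes is the 5.15% given above.

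These counts moved with single libraries. Without S14, 4 cytosolic ribosomal protein genes, 8 mitochondrial ribosomal protein genes, 3 OXPHOS subunits and 0 proteasome subunits were lower. These are 4.49%, 10.3% and 3.53% of the first 3 lists, beside 1.41% of all genes in that fit. The medians were -0.23, -0.07, -0.10 and -0.09 against 0.04 over all genes. Without S19 and S20, the counts were 1, 8, 10 and 1, where 2.48% of all genes were lower. With TMM factors on all libraries they were 41, 14, 12 and 6, where 4.64% of all genes were lower. Leaving out S4 raised the last 3 of these lists to 32, 44 and 13 lower genes, and leaving out S5 raised the first to 61. Over all 16218 genes, 2248 were lower without S4 and 937 without S5. S14 was the lowest library for 63 of the 89 cytosolic ribosomal protein genes, against 35.0% of all genes. S20 was the highest for 45 and S19 for 30 of them, against 19.9% and 9.11% of all genes. The median of the list, relative to the Sham Veh mean, was -0.23 in S4, -0.72 in S14 and -0.24 in S15. In Sham Veh it was -0.30 in S5, -0.05 in S6, -0.10 in S13, 0.17 in S19 and 0.22 in S20. S5 therefore lay below S4 and S15, and the groups overlapped. For the OXPHOS subunits the medians were -0.06, -0.51 and -0.14 in S4, S14 and S15, and ranged from -0.12 in S5 to 0.12 in S20. The part of depth and of the atrial tissue in these counts was not tested beyond leaving the libraries out.

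**Figure D2:**
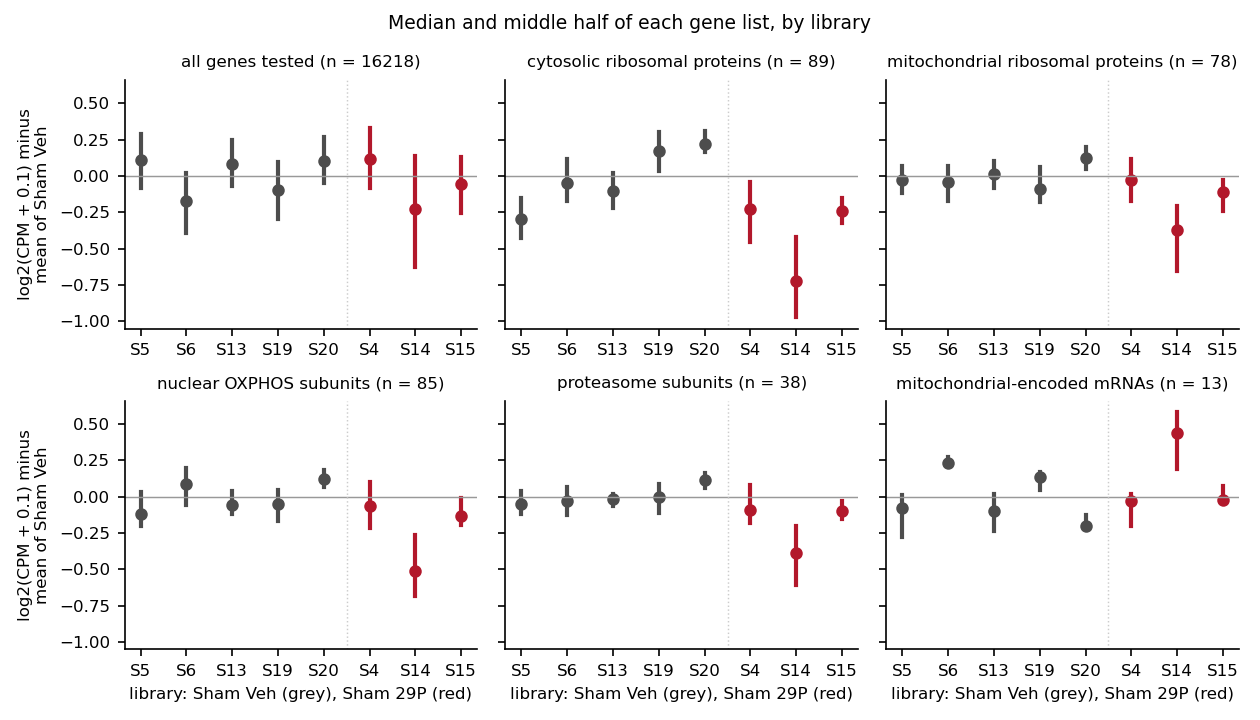
Each point is the median over the genes of a list of log2(CPM + 0.1) minus the mean of the 5 Sham Veh libraries, and each line spans the interquartile range over the genes (grey, Sham Veh; red, Sham 29P; n, genes in the list). S14 is lowest in the 4 nuclear-encoded lists and highest for the mitochondrial-encoded mRNAs, and S5 of Sham Veh lies at -0.30 for the cytosolic ribosomal proteins, below S4 and S15.

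Rplp0, a protein of the ribosomal stalk, was at 361 CPM in S4, 145 CPM in S14 and 289 CPM in S15, and at 333, 291, 365, 339 and 430.4 CPM in S5, S6, S13, S19 and S20. Only S14 lay well apart, and the groups overlapped. The log2 fold change was -0.50 ± 0.21 (SE), with an unadjusted limma p of 0.0280, and without S14 it was -0.11 with a p of 0.471. Rpl4, with the highest CPM of the list, was at 364, 313 and 389 CPM in Sham 29P and 372, 396, 419.6, 513 and 487 CPM in Sham Veh, and S19 and S20 were highest (log2 fold change -0.29 ± 0.12, limma p of 0.0268). It did not pass without S14 (-0.21, limma p of 0.140) or without S19 and S20 (-0.16, p of 0.217). Several ribosomal protein genes have near-identical processed copies, and reads can be split between a gene and its copies. Processed pseudogenes were 129 of the 835 lower genes (15.4%) and 7.02% of all genes tested. Among them, Rpl19-ps1 and Rpl10a-ps1 passed the call in 4 fits, at -0.83 ± 0.24 and -0.48 ± 0.14 on the log2 scale (-0.43 and -0.32 without S14), and are uncertain for that reason. These 4 fits are those on all libraries, without S14, without S19 and S20, and with TMM factors.

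Several genes below, Mrpl30, Mrps21, Mrpl52 and Nppb among them, were named because they passed the call in those 4 fits and did not overlap between the groups, so that passing there and their exact p are fixed by the choice and are no further support. Of the mitochondrial ribosomal protein genes, 12 of 78 did not overlap between the groups, all lower (1.51% of all genes were lower without overlap). The same held for 2 of 89 cytosolic ribosomal protein genes, 6 of 85 OXPHOS subunits and 3 of 38 proteasome subunits. Mrpl30, a protein of its large subunit (mm10 chr1:37890477-37898535), was at 102 CPM in S4, 93.9 CPM in S14 and 110.3 CPM in S15. In Sham Veh it was at 118, 143, 135, 137 and 128 CPM in S5, S6, S13, S19 and S20. Every Sham 29P library lay below every Sham Veh library. The log2 fold change was -0.38 ± 0.09 (SE), a level 0.771 of that in Sham Veh, with an unadjusted limma p of 0.000548 (0.715 adjusted) and an exact permutation p of 0.0179, the smallest that 3 against 5 allows. Mrps21, a protein of the small subunit, was at 70.6, 55.3 and 70.9 CPM in Sham 29P and 75.6, 87.5, 79.4, 91.1 and 96.3 CPM in Sham Veh, again without overlap (-0.39 ± 0.11). Mrpl52 was at 13.6, 8.95 and 10.4 CPM against 13.8, 17.005, 14.7, 16.4 and 17.8 CPM. The lowest Sham Veh value, in S5, lay just above the highest Sham 29P value, in S4. Without S14 the log2 fold changes of Mrpl30, Mrps21 and Mrpl52 were -0.32, -0.28 and -0.41. Mrpl42 (-0.27 ± 0.09) passed the call without S14, while Mrpl15 (-0.25 ± 0.10) did not, with a limma p of 0.149 without S14. Mrpl58, which releases stalled peptides from the mitochondrial ribosome, was at 28.8, 21.9 and 31.6 CPM against 32.3, 33.7, 34.8, 32.6 and 39.8 CPM.

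Among the OXPHOS subunits, Uqcrh of complex III was at 428, 352 and 453 CPM in S4, S14 and S15 and at 426, 574, 486, 557 and 568 CPM in S5, S6, S13, S19 and S20. S5 was level with S4, and the groups overlapped (log2 fold change -0.34 ± 0.11, limma p of 0.00738, and -0.24 with a p of 0.0635 without S14). Atp5o of the ATP synthase, Ndufb10 of complex I and Cox7b of complex IV were at -0.29 ± 0.11, -0.29 ± 0.11 and -0.24 ± 0.11. None of these 3 passed the call without S14. Cox6b1 of complex IV, Ndufb3 and Ndufv3 of complex I did, and were picked out after their values had been seen. Cox6b1 was at 346, 277.6 and 333 CPM in Sham 29P and at 359.8, 437, 376, 382 and 432 CPM in Sham Veh, without overlap. Of the 13 mRNAs encoded by mitochondrial DNA, mt-Nd5 was higher (24684, 29291 and 18918 CPM against 24313, 18700, 15403, 18113 and 15380 CPM, with a log2 fold change of 0.40 ± 0.18) and the other 12 passed in neither direction. The call on mt-Nd5 was lost without S14 (limma p of 0.221). Mitochondrial mRNA and nuclear OXPHOS mRNA thus went in opposite directions in S14.

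The promoters of the ribosomal and OXPHOS lists were searched for a shared motif. The letters CCGGAAG, the core recognised by ETS-family factors such as GABPA, were searched on both strands in windows from 250 bases before to 50 bases after the start of each gene (RefSeq, GRCm38.p6). They occurred in 24 of 63 cytosolic ribosomal protein genes with a promoter in the table (38.1%), 25 of 69 mitochondrial ribosomal protein genes (36.2%) and 16 of 66 OXPHOS subunits (24.2%). The share was 17.1% of 11297 tested genes with a promoter and 9.12% of all 27025 promoters. Shown are 160 bases, from 140 before to 20 after the start, of 2 lower genes of each list, those with the highest CPM whose window held the letters. Capitals mark the letters, or CTTCCGG where they lie on the other strand. A match is a description of the sequence and not a bound site.
Rps3a1, chr3:86142649-86142808, minus strand: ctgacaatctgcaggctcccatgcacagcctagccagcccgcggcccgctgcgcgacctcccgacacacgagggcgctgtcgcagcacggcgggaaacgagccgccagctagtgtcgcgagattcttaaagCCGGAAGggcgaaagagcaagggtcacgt
Rpl41, chr10:128549149-128549308, minus strand: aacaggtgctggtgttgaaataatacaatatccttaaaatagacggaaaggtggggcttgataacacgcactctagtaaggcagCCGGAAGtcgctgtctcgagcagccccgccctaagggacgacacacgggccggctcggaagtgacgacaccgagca
Mrps18a, chr17:46110864-46111023, plus strand: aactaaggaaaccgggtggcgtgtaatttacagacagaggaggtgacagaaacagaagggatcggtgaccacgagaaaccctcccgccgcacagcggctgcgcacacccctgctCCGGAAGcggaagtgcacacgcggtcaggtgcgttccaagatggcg
Mrpl58, chr11:115403612-115403771, plus strand: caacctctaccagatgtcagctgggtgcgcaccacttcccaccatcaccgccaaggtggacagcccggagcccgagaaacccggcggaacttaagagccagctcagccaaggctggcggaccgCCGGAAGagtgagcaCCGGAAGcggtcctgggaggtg
Uqcrh, chr4:116075051-116075210, minus strand: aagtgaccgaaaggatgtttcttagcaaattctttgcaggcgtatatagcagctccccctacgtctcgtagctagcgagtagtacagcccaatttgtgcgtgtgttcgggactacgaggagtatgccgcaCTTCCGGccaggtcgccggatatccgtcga
Cox6b1, chr7:30626095-30626254, minus strand: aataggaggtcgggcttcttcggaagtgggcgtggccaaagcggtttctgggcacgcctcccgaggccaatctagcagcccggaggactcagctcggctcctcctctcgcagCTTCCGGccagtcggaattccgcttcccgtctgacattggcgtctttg
The log2 fold changes were -0.38 for Rps3a1, -0.54 for Rpl41, -0.35 for Mrps18a, -0.35 for Mrpl58, -0.34 for Uqcrh and -0.32 for Cox6b1. Without S14 only Cox6b1 of these 6 passed the call, and the values were -0.38, -0.46, -0.07, -0.19, -0.24 and -0.22 in the same order. Without S19 and S20 only Mrpl58 and Cox6b1 passed.

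The direction of the difference followed transcript length. Among protein-coding genes with a transcript under 1000 bases, 27.2% were lower and 0 of 636 were higher, with a median log2 fold change of -0.29. Among those of 8000 bases or more, 1.04% were lower and 6.10% higher, with a median of 0.13. The median transcript length was 1464 bases for lower genes, 5252 bases for higher genes and 3184 bases for all genes tested, counted over the protein-coding genes of each. Leaving out the ribosomal and OXPHOS lists moved the median of the lower genes to 1629 bases. The median level of the shortest class, relative to Sham Veh, was -0.07 in S4, -0.60 in S14 and -0.20 in S15, and -0.15, -0.03, -0.02, 0.02 and 0.17 in S5, S6, S13, S19 and S20. Without S14, 5.50% of the shortest class were lower and the median was -0.13. Without S19 and S20, 8.18% of it were lower and the median was -0.24. The difference in median level between the shortest 20% and the longest 20% of genes had an exact permutation p of 0.0714 between the groups. Cytosolic ribosomal proteins and OXPHOS subunits have median transcripts of 906 and 861 bases. Whether their levels were lower than those of other genes of that length was not tested.

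**Figure D3:**
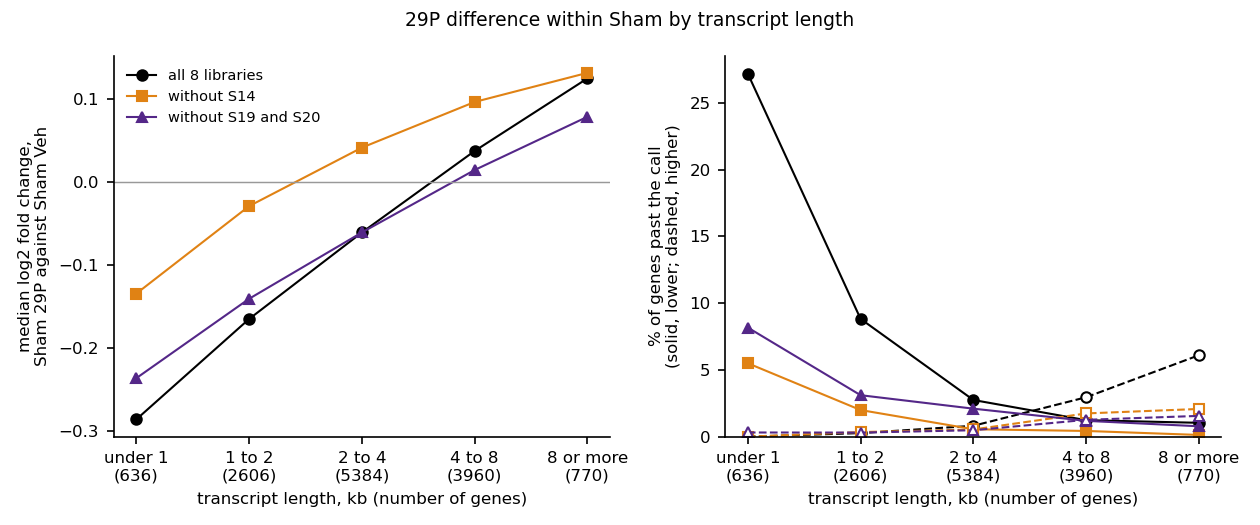
Median log2 fold change of Sham 29P against Sham Veh (left) and percentage of genes past the call (right; solid lines with filled symbols, lower; dashed lines with open symbols, higher) in 5 classes of transcript length, for protein-coding genes, with all 8 libraries, without S14 and without S19 and S20. The median goes from -0.29 in the shortest class to 0.13 in the longest with all libraries, and from -0.13 to 0.13 without S14.

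Nppb, which encodes the brain natriuretic peptide released by stretched cardiomyocytes, was lower with 29P. It was at 159.7 CPM in S4, 124 CPM in S14 and 96.8 CPM in S15, and at 202, 205, 215, 447 and 226 CPM in S5, S6, S13, S19 and S20. The groups did not overlap, and S19, with atrial transcripts, was the highest. The log2 fold change was -0.98 ± 0.26 (SE), a level 0.505 of that in Sham Veh, with an unadjusted limma p of 0.00135 (0.715 adjusted) and an exact permutation p of 0.0179. Without S19 and S20 it was -0.74 and without S14 it was -0.98, fits whose call was part of its choice. The sample descriptions carry a number whose meaning the labels do not state, and the numbers were grouped here into 4 runs of nearby values. Within the runs that hold both groups, the log2 difference was -0.35 (S4 against S5 and S6) and -0.79 (S14 against S13). The choice of genes without overlap had fixed the sign of both values, so they are no further support. S15 and the pair S19 and S20 stood in runs of 1 group only. The gene lies at mm10 chr4:147985788-147987205 on the plus strand, with no overlapping gene, and its 781-base transcript is in the shortest length class.

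Of 19 tested genes of the cardiac stress response, 2 were lower (Nppb and Csrp3, 10.5% beside 5.15% of all genes) and 0 higher. A log2 fold change below 0 was found in 18 of them, against 9593 of all 16218 genes. Csrp3, a Z-disc protein of muscle, was at 1087, 705 and 998 CPM in Sham 29P and 1206, 1082, 1016, 1133 and 1229 CPM in Sham Veh (-0.31 ± 0.14, and -0.12 with a limma p of 0.404 without S14). Ankrd1, a nuclear and sarcomeric stress protein, was at 1048, 1564 and 924 CPM against 1447, 1381, 1466, 2185 and 1107 CPM and did not pass (log2 fold change -0.37, limma p of 0.129), but did without S14 (-0.59, p of 0.0283). Acta1, skeletal α-actin, was at 319, 154 and 128 CPM against 256, 161, 369, 473 and 286 CPM (-0.65, p of 0.104). Myh7, the slow myosin heavy chain, was at 0.05. Nppb was the 1 gene of this list whose groups did not overlap. Nppa, the atrial natriuretic peptide and an atrial marker, was at 132, 136 and 129.7 CPM in Sham 29P and at 187, 304 and 191 CPM in S5, S6 and S13, but at 3670 and 3101 CPM in S19 and S20. Every Sham 29P library lay below every Sham Veh library, with or without S19 and S20. Its log2 fold change was -2.31 ± 0.84, and without S19 and S20 it was -0.74 and did not pass (limma p of 0.132).

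Calcium handling and contraction genes gave 2 higher (9.52%) and 0 lower of 21, where 1.57% of all genes were higher and 5.15% lower. Pln, phospholamban, which restrains the calcium pump of the sarcoplasmic reticulum, was at 5994, 7882 and 5723 CPM against 5800, 5142, 5514, 4752 and 5045 CPM (log2 fold change 0.30 ± 0.13). Cacna1c, the L-type calcium channel, was at 155, 121 and 143 CPM against 148, 75.8, 124, 72.4 and 102.8 CPM (0.46 ± 0.20). Pln was highest in S14, and its call was lost without it (limma p of 0.240). The call on Cacna1c held without S14 (limma p of 0.0221) and not without S19 and S20 (p of 0.139).

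The chains of the integrin that 29P is directed at did not pass the call. Itgav, the αv chain, was at 26.8, 28.2 and 22.7 CPM in S4, S14 and S15 and at 24.6, 21.4, 24.05, 29.5 and 27.3 CPM in Sham Veh, a log2 fold change of 0.03 ± 0.17 (SE) with a limma p of 0.852. Itgb3, the β3 chain, was at 3.18, 0.705 and 3.11 CPM in S4, S14 and S15 and at 1.89, 2.01, 3.52, 3.485 and 5.095 CPM in S5, S6, S13, S19 and S20. The groups overlapped, and the low value of S14 set the log2 fold change of -0.60 ± 0.46 (limma p of 0.203). Without S14 it was 0.07 with a p of 0.871. None of the 25 integrin chains tested passed in either direction, with a median of -0.19 and of -0.00 without S14. Itgb1, the β1 chain with the highest CPM, was at 437, 459 and 387 CPM against 442, 383, 396, 422 and 430.3 CPM.

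Few ligands, adaptors and vascular partners of the integrin passed the call, where 1.57% of all genes were higher and 5.15% lower. None of 13 RGD-bearing matrix ligands passed the call, with the basement membrane protein nidogen (Nid1) at 143, 119 and 141 CPM against 146, 130.5, 162, 134 and 156 CPM, and fibronectin (Fn1) at 45.3, 25.7 and 36.4 CPM against 41.0, 28.1, 40.4, 46.7 and 51.0 CPM. Of 28 adaptors and kinases of integrin adhesions, 1 was higher and 1 lower. Lims1, which encodes the adaptor PINCH1 of the complex with integrin-linked kinase, was at 155, 187 and 144 CPM in Sham 29P and 143, 117, 136, 131 and 138 CPM in Sham Veh, without overlap (0.28 ± 0.12). Ptk2b, the focal adhesion kinase relative PYK2, was at 3.97, 2.19 and 4.75 CPM against 6.23, 4.47, 4.66, 5.27 and 6.04 CPM, with overlap (-0.60 ± 0.24). Neither passed without S14. Of 20 genes of VEGF signalling, Angpt2, an antagonist of the Tie2 receptor, was lower at 3.04, 2.68 and 2.70 CPM against 4.67, 2.73, 4.47, 5.76 and 4.35 CPM (-0.59 ± 0.24, and -0.56 with a limma p of 0.0539 without S14). Vegfa was at 198, 140 and 193 CPM against 228, 127, 202, 146 and 208 CPM, a log2 fold change of -0.02. Kdr, the main VEGF receptor, was at -0.05.

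**Figure D4:**
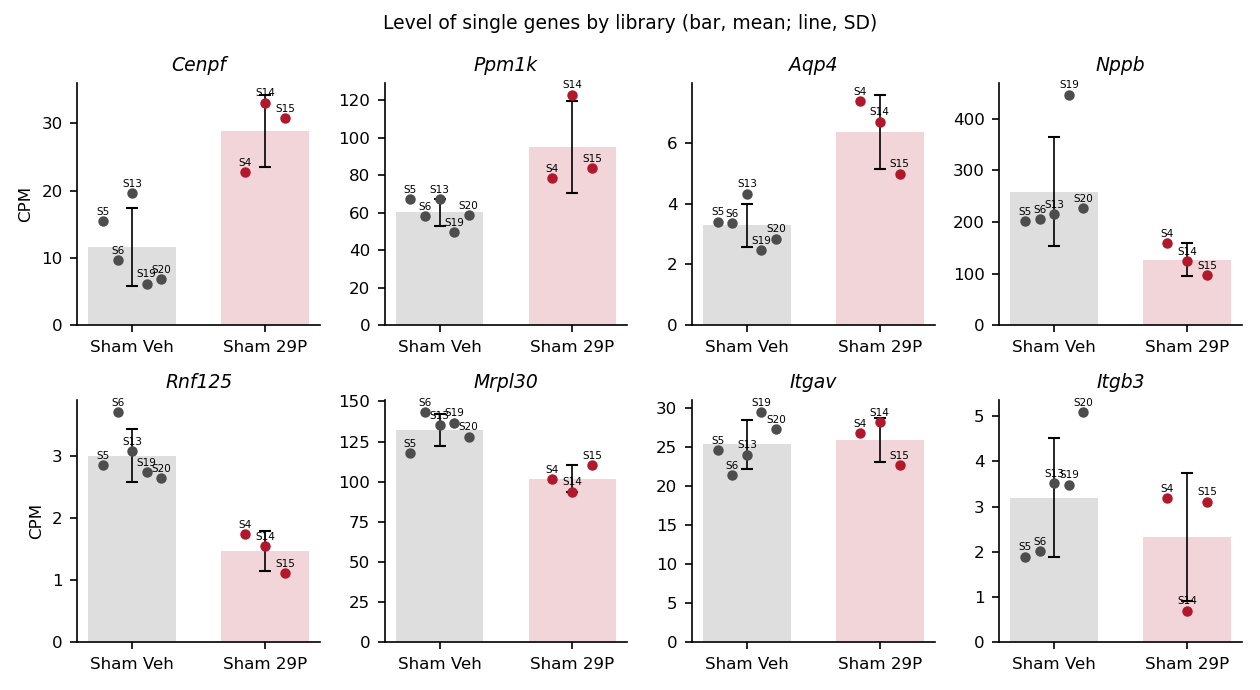
CPM of 8 genes in each Sham library (points, labelled by library), with the group mean as a bar and the SD as a line (n = 5 Sham Veh, n = 3 Sham 29P). The groups do not overlap for Cenpf, Ppm1k, Aqp4, Nppb, Rnf125 and Mrpl30, and overlap for Itgav and Itgb3.

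Other genes that separated the groups are given by a rule on 4 fits, those named above for the pseudogenes, without overlap between the groups. Over all genes, 27 higher and 72 lower genes passed in all 4 fits, and the further conditions on level, overlap and symbol left 11 higher and 23 lower genes. Because the rule asked for the call in all 4 fits, passing in them is no further support. Without S14, S19 and S20 together, where 2.2% of all genes passed, 9 of the 23 named genes did, on libraries that the rule had used too (Cenpf, Setdb2, Adra1a, Abhd13, Rnf125, Mrpl30, Med6, Nppb and Apip).

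Cenpf was the highest of these by size and the higher gene with the smallest p. It encodes a large microtubule-binding protein of the kinetochore, made in dividing cells. It was at 22.8 CPM in S4, 33.1 CPM in S14 and 30.8 CPM in S15, and at 15.4, 9.67, 19.7, 6.17 and 6.89 CPM in S5, S6, S13, S19 and S20. S19 and S20 were the lowest, and S13 and S5 the highest of the Sham Veh libraries. The log2 fold change was 1.44 ± 0.32 (SE), 2.71-fold, with an unadjusted limma p of 0.000267 (0.715 adjusted) and an exact permutation p of 0.0357. Without S14 it was 1.33, without S19 and S20 0.99 and without all 3 libraries 0.88. Within the same runs of sample numbers it was 0.89 and 0.75, where the choice of genes without overlap had fixed the sign. It lies at mm10 chr1:189640606-189688086 on the minus strand, overlapped by Gm37239 on the other strand, and its 11130-base transcript is in the longest class. The strand setting of the counting is not given in the sources used here, and Ppm1k, Aqp4, Msi2, Vti1b, Uqcrh, Pln and Cacna1c also overlap genes on the opposite strand. Other genes of the cell cycle did not pass: of 20 genes, 1 (Cenpf) was higher and 0 lower, beside 1.57% and 5.15% of all genes. Mki67 was at 0.09 and Top2a at -0.22.

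Ppm1k, the mitochondrial phosphatase that activates the breakdown of branched-chain amino acids, was at 78.4 CPM in S4, 123 CPM in S14 and 83.9 CPM in S15, and at 67.3, 58.1, 67.4, 49.7 and 58.7 CPM in Sham Veh. The groups did not overlap, and S14 was highest. The log2 fold change was 0.64 ± 0.18, or 1.56-fold, and 0.44 without S14. Aqp4, a water channel, was at 7.38, 6.70 and 4.99 CPM against 3.41, 3.36, 4.33, 2.46 and 2.85 CPM (0.94 ± 0.28, 1.92-fold). Adra1a, the α1A-adrenergic receptor of cardiomyocytes, was at 11.99, 13.04 and 14.1 CPM against 10.9, 5.55, 8.84, 6.12 and 9.64 CPM (0.71 ± 0.25, 1.63-fold). With a term for the runs of sample numbers it was 0.61, and the call was lost (limma p of 0.0519). Its transcript of 4282 bases comes from mm10 chr14:66635251-66771168, and no other gene overlaps it.

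The remaining higher genes have roles in gene regulation or protein turnover, or little known ones. Crebrf, a regulator of the CREB3 transcription factor, was at 38.3, 59.1 and 50.7 CPM against 38.1, 34.1, 37.5, 28.6 and 35.1 CPM (0.49 ± 0.15). S5 reached 38.1 CPM, just under S4. Setdb2, of the SET-domain family of lysine methyltransferases, was at 6.27, 5.64 and 6.04 CPM against 5.26, 3.40, 3.28, 4.29 and 4.15 CPM (0.56 ± 0.18). Msi2, an RNA-binding protein that controls translation, was at 94.8, 113.6 and 90.7 CPM against 86.0, 75.7, 82.7, 70.2 and 79.8 CPM (0.33 ± 0.11). Zfp960, Fsd1l, Klhl28 and Abhd13 were at 0.63 ± 0.19, 0.46 ± 0.14, 0.39 ± 0.13 and 0.31 ± 0.12 on the log2 scale. Fsd1l was at 0.28 without S14, and Abhd13 did not pass in the fit to the Sham libraries alone (limma p of 0.0597) or without S4 (p of 0.0813). S14 was the highest library for Cenpf, Ppm1k, Zfp960, Fsd1l, Crebrf, Msi2 and Klhl28, and not for Aqp4, Setdb2, Adra1a and Abhd13.

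Among the lower genes, Rnf125 had the smallest p of all genes tested in either direction that met the rule. It encodes a ubiquitin ligase known for marking the viral RNA sensor RIG-I. It was at 1.74 CPM in S4, 1.55 CPM in S14 and 1.11 CPM in S15, and at 2.86, 3.71, 3.08, 2.74 and 2.65 CPM in S5, S6, S13, S19 and S20. Every Sham 29P library lay below every Sham Veh library. The log2 fold change was -0.998 ± 0.21 (SE), a level 0.501 of that in Sham Veh, with an unadjusted limma p of 0.000145 (0.715 adjusted). Without S14 it was -1.05 and without S19 and S20 -1.09, fits whose call was part of its choice. Med6, a subunit of the Mediator complex that links transcription factors to RNA polymerase II, was at 5.90, 6.98 and 7.45 CPM against 9.67, 11.5, 8.17, 11.6 and 9.64 CPM (-0.56 ± 0.14, and -0.59 without S14). Med6 overlaps Gm16570 and Gm16572. Ppp1r11, an inhibitor of protein phosphatase 1, was at 32.7, 24.0 and 29.6 CPM against 33.2, 41.0, 39.1, 38.2 and 42.4 CPM (-0.44 ± 0.12). Tmem256, Apip (an enzyme of methionine salvage) and Vti1b (a SNARE of endosomes) were at -0.54 ± 0.15, -0.34 ± 0.10 and -0.37 ± 0.11.

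Few markers of the other cell types of the heart passed the call, where 1.57% of all genes were higher and 5.15% lower. Of 10 endothelial markers, 2 were lower. Pecam1, the adhesion molecule of endothelial junctions, was at 193, 104 and 185 CPM in S4, S14 and S15 and 203, 183, 201, 199 and 212 CPM in Sham Veh (-0.37 ± 0.17, and -0.08 without S14). Emcn, an endothelial sialomucin, was at 45.1, 35.9 and 26.0 CPM against 48.9, 55.3, 43.7, 43.2 and 44.0 CPM (-0.43 ± 0.17, and -0.45 with a limma p of 0.0352 without S14). S15 was the lowest library for Emcn, and without it the log2 fold change was -0.22 and did not pass (limma p of 0.222). The summed level of the endothelial list was 1204, 606 and 938 CPM in Sham 29P and 849 to 1251 CPM in Sham Veh. Of 10 fibroblast markers 0 passed, with sums of 1849, 1189 and 1623 CPM against 1463 to 2672 CPM and Gsn at the highest CPM. Of 39 collagen genes, 35 were tested and 1 (Col6a3) was lower, a call lost without S14.

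Of 8 lymphocyte markers tested, 2 were lower and 0 higher, and without S14 1 was lower. Over all genes, 5.15% were lower, and 1.41% without S14. Ms4a1, which encodes the B cell surface protein CD20, was at 0.277, 0.141 and 0.117 CPM in Sham 29P and at 0.631, 1.21, 1.28, 0.268 and 1.20 CPM in Sham Veh. S19 lay within the range of Sham 29P (-1.76 ± 0.48, limma p of 0.00183). Its call held without S14 and without S19 and S20, at levels near the lower limit of the test. Cd79b, a chain of the B cell receptor, was at 0.600, 0.282 and 0.293 CPM against 0.589, 1.34, 1.71, 0.402 and 0.549 CPM (-0.93 ± 0.44, and -0.78 with a limma p of 0.143 without S14), and Ighm, the lymphocyte marker with the highest CPM, was at 11.2, 6.1 and 3.1 CPM against 4.2 to 18.2 CPM. Lyz2, lysozyme of macrophages, was lower (202, 109.7 and 112 CPM against 153, 191, 181, 177 and 192 CPM, -0.39 ± 0.18), with overlap and with 1 of 13 macrophage markers passing. The call was lost without S14 (limma p of 0.226). Cnn1, a marker of smooth muscle, was lower at 2.67, 1.13 and 1.94 CPM against 3.07, 3.36, 2.33, 6.75 and 13.9 CPM, where S19 and S20 were highest, and its call was lost without them (limma p of 0.198) and without S14 (p of 0.114). None of the markers of neutrophils, red blood cells, adipocytes, mesothelium, Schwann cells or skeletal muscle passed.

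Metabolic genes outside the OXPHOS list showed few differences, where 1.57% of all genes were higher and 5.15% lower. Of 30 genes of fatty acid oxidation, 1 was lower (Acot13, a mitochondrial thioesterase, at -0.25 ± 0.09, and -0.20 with a limma p of 0.0567 without S14) and 0 higher, with a median of 0.05. Of 24 genes of glycolysis and glucose uptake, 1 was lower (Pgam2, the muscle phosphoglycerate mutase). It was at 282, 158 and 279 CPM in Sham 29P and 291, 254, 297, 287 and 338 CPM in Sham Veh, and S14 lay apart from the other 7 (-0.34 ± 0.16, and -0.06 without S14). Of 28 tested genes that the study named in its comparison of TAC mice, 0 passed within Sham, and since the study chose that list on libraries of this series it is no independent evidence. Acadm, the medium-chain acyl-CoA dehydrogenase, had the highest CPM of these, at 899, 912 and 964 CPM against 968, 829.8, 873, 728 and 899 CPM. Of 15 heat shock genes, 1 was lower and 0 higher. This was Cryab, the small heat shock protein αB-crystallin, at 916, 553 and 857 CPM against 972, 841, 926, 939 and 1015 CPM. Its log2 fold change was -0.31 ± 0.14, and -0.08 with a limma p of 0.515 without S14. All 15 had a log2 fold change below 0, as had 9593 of all 16218 genes tested. Of 7 nuclear-retained long RNAs, 1 was higher (Snhg14, at 11.8, 18.5 and 20.2 CPM against 7.61, 10.6, 13.9, 9.17 and 11.8 CPM with a log2 fold change of 0.65 ± 0.23). Snhg14 overlaps Ube3a on the opposite strand and several genes on its own, so that its reads are uncertain. None of the hypoxia, clock, interferon-stimulated, glucocorticoid-responsive, immediate-early or renin-angiotensin genes passed.

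The effect of 29P in TAC hearts was set beside that in Sham. Between TAC 29P (6 libraries) and TAC Veh (3 libraries), which share no library with the Sham comparison, 154 genes were higher (0.95%) and 180 lower (1.11%), which is 2.06% of those tested, with 0 at an adjusted p of 0.05. Across the 16218 genes the Pearson correlation of both effects was -0.00440, a value over genes, which are not independent. The difference between the effects passed the call in 463 genes (2.85%), 152 higher (0.937%) and 311 lower (1.92%) in Sham than in TAC, with 0 at an adjusted p of 0.05 and a smallest adjusted p of 0.999 (limma, Benjamini-Hochberg).

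No cytosolic ribosomal protein gene, mitochondrial ribosomal protein gene or OXPHOS subunit passed the call within TAC, and their medians there were -0.03, 0.02 and 0.08. The difference from Sham itself passed, toward a lower effect in Sham, in 6 of 89, 7 of 78 and 21 of 85 of them. Without S14 it passed in 0, 2 and 1, without S19 and S20 in 1, 2 and 6, and with TMM factors in 11, 4 and 7. Over all 16218 genes tested, the counts in this direction were 311 with all libraries and 142 without S14. They were 240 without S19 and S20 and 343 with TMM factors. Of 30 fatty acid oxidation genes, 11 were higher with 29P within TAC and 0 within Sham, or 1 within Sham without S14 and 2 without S19 and S20. The difference itself passed in 3 of them, in 0 without S14 and in 5 without S19 and S20, each toward a lower effect in Sham. Over all 16218 genes the counts in this direction were 311, 142 and 240 in the same order.

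Aqp4 and Rnf125 passed the call in the same direction in both. Aqp4 was at 0.994 ± 0.117 CPM in TAC Veh (SD, n = 3) and 2.60 ± 0.967 CPM in TAC 29P (SD, n = 6), a log2 fold change of 1.23 ± 0.27 beside 0.94 ± 0.28 in Sham. Rnf125 was at 4.29 ± 0.651 CPM in TAC Veh (SD, n = 3) and 2.89 ± 0.508 CPM in TAC 29P (SD, n = 6), a log2 fold change of -0.56 ± 0.20 beside -0.998 ± 0.21. In all, 18 genes passed in both comparisons, 15 of them in the same direction. These were 5.39% of the TAC calls, where 6.72% of all genes passed within Sham, and 1.65% of the Sham calls, where 2.06% passed within TAC. Nppb was at 894 ± 290 CPM in TAC Veh (SD, n = 3) and 641 ± 128 CPM in TAC 29P (SD, n = 6), with -0.46 ± 0.25 and a limma p of 0.0877. The difference of its effects between Sham and TAC did not pass (limma p of 0.161). Cenpf was at 0.28 ± 0.31 in TAC, and the difference of 1.15 ± 0.44 passed with an unadjusted limma p of 0.0180, but not without S19 and S20 (p of 0.0751). The plot of both effects for the genes of the rule shows most of them nearer to 0 in TAC, and the genes had been chosen by their Sham effect.

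**Figure D5:**
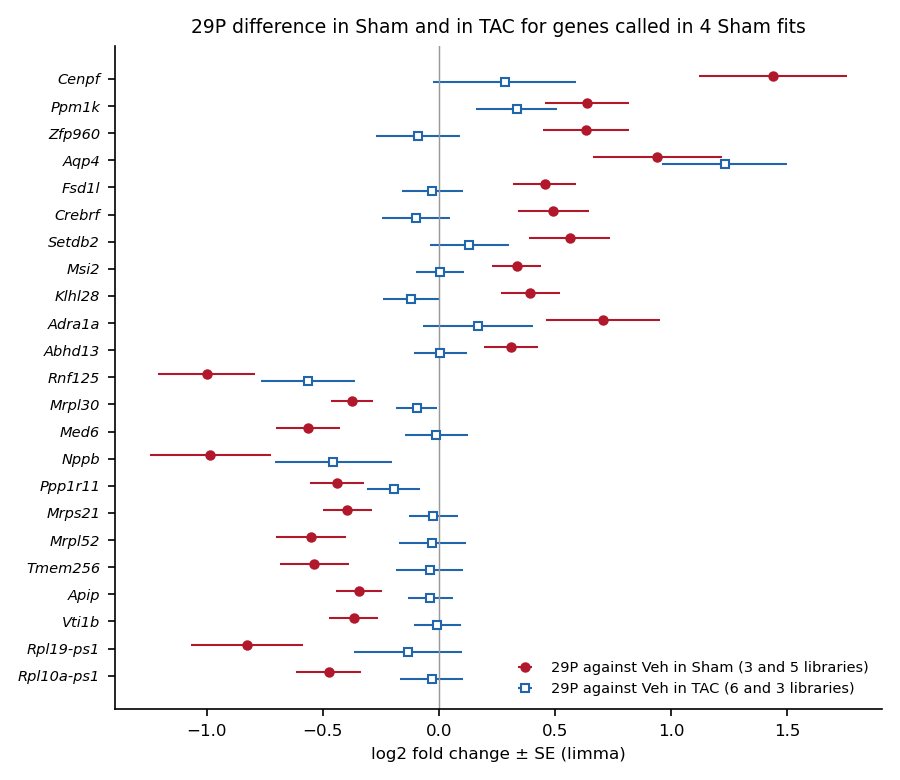
Log2 fold change of 29P against vehicle with its SE from limma, in Sham (filled red circles) and in TAC (open blue squares), for the 23 genes named by the rule on 4 Sham fits. Aqp4 and Rnf125 pass the call in both, at 0.94 and 1.23 and at -0.998 and -0.56, and the genes were chosen by their values in Sham.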

How the data were processed

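Polyadenylated RNA of left ventricle apex was sequenced in 17 libraries, and the 8 Sham libraries carry this comparison. The authors deposited CPM (read counts scaled to a common total per library, not per length) for 21798 genes, with 0.0001 added to every value. The submitters' processing notes name Partek, STAR 2.3.7 and mm10, and the strand setting is not given in the sources used here. Library numbers run to 20, and 3 of them were not analysed here. Depth was estimated from the steps between low values. In the 8 Sham libraries, 82.2% to 83.9% of these steps were whole multiples of 1 read (within 0.05). This was too few to recover counts, so a count test was not used.

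The constant was removed, and limma 3.58.1 in R 4.3.3 (trend, 4 group means, 13 residual degrees of freedom over all 17 libraries) was fitted to log2(CPM + 0.1) for 16218 genes with at least 0.5 CPM in at least 3 libraries. Fold changes on this scale understate those of low genes. The call was an unadjusted p of 0.05 or less, the threshold of the study, with Benjamini-Hochberg adjustment over all genes beside it. Exact two-sided permutation tests ran over all 56 splits of 3 against 5 libraries. The labels give each library a number of its own but do not state how replicates were taken, so p-values measure the spread between libraries. For limma this spread is pooled within the 4 groups over all 17 libraries, Sham and TAC. In the fit to Sham libraries alone, the limma p of Rnf125 was 0.00212 (0.000145 with all libraries) and that of Mrpl30 0.00873 (0.000548). For Aqp4 it was smaller, 0.00257 (0.00330 with all libraries).

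Named genes were, first, up to 12 each way with the smallest p among genes called in the same direction in 4 fits (all libraries, without S14, without S19 and S20, with TMM factors), with a mean of at least 1 CPM, no overlap between groups and a symbol other than a Gm or Rik model. Then came Itgav and Itgb3, and up to 4 called members of each of 38 gene lists with the highest CPM, or the member with the highest CPM where none was called. Other genes were named for their role after their values were seen. 1 gene list is not reported here. The members and lists were chosen with earlier results of these data known. Coordinates and lengths are from GENCODE vM21, in which 21250 symbols were found once, and promoters from RefSeq (GRCm38.p6). Code was tested on simulated data. Python 3.11.15, with pandas 2.3.3 and numpy 2.4.6 handled the tables, scipy 1.17.1 the exact tests and matplotlib 3.10.9 the figures. Alternatives were other scalings, constants, filters, models and sets of libraries.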

Additional observations from a re-analysis of the deposited data

Results flagged for a closer look

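A single Sham Veh library stood far from the other 4 in 3 of 81 groups examined, where chance gives about 1 in 20. The outlying value was 6.03 for Fsd1l (S5), 8.80 for Nppb (S19) and 5.47 for Apip (S6), in log2(CPM + 0.1).

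Of 76 named genes, 22 had an effect of 29P in Sham that differed from that in TAC at an unadjusted limma p of 0.05 or less, and none at a Benjamini-Hochberg adjusted p of 0.05, beside 2.85% of all genes. Since 58 of the 76 had passed the call within Sham, the choice of genes favours such a difference, and the count is a description. Genes with a higher effect in Sham were Cenpf (by 1.15 on the log2 scale), Zfp960 (0.72), Crebrf (0.59), Klhl28 (0.51), Fsd1l (0.48) and Msi2 (0.33). A lower effect in Sham was seen for mitochondrial ribosomal proteins, with Mrpl52 at -0.52, Mrps21 at -0.37, Mrpl42 at -0.37 and Mrpl30 at -0.28. The OXPHOS subunits Atp5o (-0.38), Uqcrh (-0.38), Cox7b (-0.33) and Ndufb10 (-0.33) went the same way. So did Med6 (-0.55), Tmem256 (-0.50), Vti1b (-0.36), Apip (-0.31) and the pseudogene Rpl10a-ps1 (-0.44). Emcn (-0.54) and Ms4a1 (-1.93) were cell type markers, and Stard10 (-2.47) an atrial marker that was high in S19 and S20. Stard10 also varied within TAC, at 7.77 ± 1.13 CPM in TAC Veh (SD, n = 3) and 18.2 ± 21.4 CPM in TAC 29P (SD, n = 6). Whether TAC libraries carried atrial tissue was not tested. Without S14, 8 of the 22 still passed (Cenpf, Zfp960, Crebrf, Klhl28, Med6, Mrpl42, Emcn and Ms4a1), and without S19 and S20, 9 did (Zfp960, Fsd1l, Crebrf, Klhl28, Med6, Apip, Mrpl42, Emcn and Ms4a1).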

How the results depend on the processing

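Under each alternative run, no called named gene reversed except Pgam2, at 0.0007 on the log2 scale without S14, S19 and S20 (-0.34 with all libraries). Against 255 higher genes, TMM factors gave 522, median-of-ratios factors 528, totals without mitochondrial-encoded genes 508, no filter 390, Sham libraries only 84, leaving out S19 and S20 124 and leaving out S6 and S14 67. Against 835 lower genes, Sham libraries only gave 404, array weights 1596, a term for the run of sample numbers 460, leaving out S19 and S20 402, leaving out S14, S19 and S20 177, leaving out S6 and S14 221, and TMM factors without S14 288. Leaving out 1 library at a time gave 136 to 570 higher and 228 (without S14) to 2248 (without S4) lower genes. Against 463 genes whose effect differed between Sham and TAC, no filter gave 709, array weights 1347, the term for the run 206, leaving out S6 and S14 292, and 1 library at a time 309 to 1431. At an adjusted limma p of 0.05 all 3 counts were 0, and with a constant of 0.0001 1 gene passed within Sham. Leaving out S6 and S14, and TMM factors without S14, were chosen after seeing the data. The cause of these shifts was not tested. Of 58 called named genes, 29 passed without S14, 30 without S19 and S20, 45 with TMM factors, 34 with Sham libraries only, 12 without S14, S19 and S20, 21 without S6 and S14, and 23 with TMM factors without S14. The library numbers are unique to each sample and the groups share none, so libraries were not paired by number. The runs of sample numbers, a grouping made here, are the nearest to a block and were fitted as a term. That fit gave 340 higher and 460 lower genes, and 206 genes whose effect differed between Sham and TAC. Depth of 14.2 to 23.8 M reads limits genes near 0.5 CPM.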
